A study of Homo sapiens with 6 samples.

Results

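The 10 genes described here encode human aldehyde dehydrogenases: ALDH1A3, ALDH1B1, ALDH2, ALDH3A2, ALDH4A1, ALDH6A1, ALDH7A1, ALDH9A1, ALDH18A1 and ALDH1L2. They are 10 of 23228 gene symbols in the count table, and 9 of them had enough reads to be tested. They were selected on measured values of this same experiment, because the family leaned lower after ALKBH5 knockdown. Their differences between the groups are therefore given as a description, and no test of them is used as evidence. The family's other 9 genes in the table are shown for comparison.

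The cells were U2OS, a human line established from an osteosarcoma, and their RNA was sequenced 48 hours after transfection with a lipid reagent. The control group received scrambled siRNA (3 libraries, called controls below), and the knockdown group received siRNAs against ALKBH5 (3 libraries), the enzyme that demethylates N6-methyladenosine (m6A) in RNA. Both groups went through the same transfection, and all libraries come from this single line. The labels do not name separate cultures, so errors and p-values measure only how these libraries vary, and that variation may be technical. No sample with a different siRNA or with ALKBH5 restored was analysed here, so loss of ALKBH5 and other effects of the siRNAs cannot be told apart. In whole-culture RNA, fewer cells of a kind and less RNA per cell cannot be told apart either.

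Aldehyde dehydrogenases oxidise aldehydes to carboxylic acids with NAD or NADP as the electron acceptor. Some members clear toxic aldehydes from alcohol or lipid peroxidation, others make retinoic acid, and several catalyse a fixed step in the metabolism of an amino acid, carnitine or folate. High aldehyde dehydrogenase activity is widely used to sort stem-like cells from cultures, osteosarcoma included, and is usually ascribed to the retinaldehyde-oxidising members.

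Reads in genes numbered from 18817181 to 23410007 per library, and levels are given in CPM, the count relative to all reads in genes, of which 1 stood for 18.8 to 23.4 reads. CPM values below are also scaled by TMM, a factor that evens out differences in library composition. ALKBH5 itself was at 138, 148 and 143 CPM in the controls and at 19.4, 16.2 and 15.7 CPM after knockdown. Of uniquely placed reads, 15 to 15.5% fell in no feature used for counting in the controls and 17.3 to 18.6% after knockdown. Such reads need not lie outside genes, and the part of this shift in the results was not tested. VIM, COL1A1 and SPARC, genes of mesenchymal cells and bone matrix, stood at 1936, 1526 and 2030 CPM on average in the controls, whereas the mature osteoblast genes SP7 and BGLAP were near 0 and IBSP had 0 reads. COL1A2, the partner chain of COL1A1, averaged only 4.44 CPM and ALPL 3.97 CPM. After knockdown COL1A1 and RUNX2 were called higher, and VIM, SPARC and ALPL lower. The 9 markers of that list summed to 5383 to 5610 CPM in the controls and 4564 to 5342 CPM after knockdown. The 7 leukocyte markers summed to 28.1 to 31.6 CPM in the controls and 96.4 to 201 CPM after knockdown, and LCP1 was the single one of its 4 tested markers that rose (18.2 and 135 CPM on average). PTPRC fell from 1.31 to 0.619 CPM and CORO1A from 7.25 to 5.20 CPM (adjusted p = 0.028 and 0.033), CD68 had no call (adjusted p = 0.71), and CD3E was at 0 in every library. The 5 hepatocyte markers summed to 123 to 170 and 289 to 382 CPM, nearly all of it SERPINA1, and ALB and TTR were at 0 throughout. The 6 endothelial markers summed to 6.85 to 9.61 and 2.41 to 3.58 CPM, and the 8 epithelial markers to 538 to 635 and 626 to 648 CPM. Most of the epithelial sum was KRT8 (356 and 261 CPM on average) and KRT18 (180 and 294 CPM), while EPCAM averaged 5.24 CPM in the controls. KRT8 and CLDN7 were called lower after knockdown, and KRT18, CLDN4 and CDH1 higher. The part of these markers in the results was not tested.

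The family split in the knockdown. Of the 9 tested members, 4 were called lower (ALDH4A1, ALDH6A1, ALDH7A1 and ALDH9A1) and 2 higher (ALDH1L2 and ALDH3A2) at an adjusted p under 0.05 (edgeR's quasi-likelihood test with Benjamini-Hochberg adjustment over all tested genes), and 3 had no call (ALDH1B1, ALDH2 and ALDH18A1). Among all 14504 tested genes 30.8% were called lower and 30.8% called higher, so nothing is read from the members' counts. The same 4 and 2 members had groups that did not overlap, which held for 33.9% of all tested genes on the lower side and 33.5% on the higher side. The median log2 fold change of the 9 was −0.23, with a range from −1.23 to 2.07, against a median of 0.01 and quartiles of −0.45 and 0.47 over all tested genes.

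**Figure D1:**
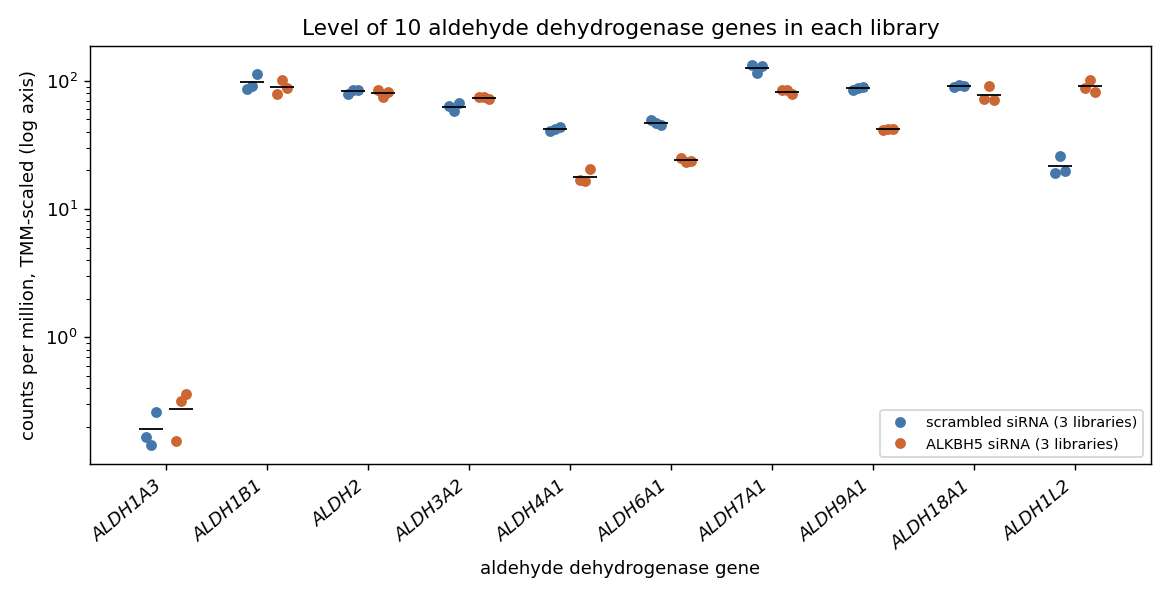
TMM-scaled CPM on a log axis for the 10 aldehyde dehydrogenase genes, with 1 point for each of the 3 scrambled and 3 ALKBH5 siRNA libraries and a bar at each mean. The groups stand apart for ALDH4A1, ALDH6A1, ALDH7A1 and ALDH9A1 (knockdown lower) and for ALDH1L2 and ALDH3A2 (knockdown higher), and ALDH1A3 lies below 0.4 CPM in every library.

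Within the 10, the 4 members called lower act in amino acid breakdown or carnitine synthesis. The decrease was not particular to such enzymes in the family. Outside the 10, ALDH8A1 of tryptophan breakdown was called higher, and ALDH3B1, ALDH16A1 and ALDH1L1 were called lower. ALDH4A1, the mitochondrial enzyme that turns the proline breakdown product pyrroline-5-carboxylate into glutamate, had 980, 877 and 833 reads in the controls (40.8, 42.1 and 43.6 CPM). In the knockdown libraries it had 326, 316 and 399 reads (16.7, 16.6 and 20.4 CPM). Every knockdown library was below every scrambled one by a wide gap, a 2.35-fold lower mean with a log2 fold change of −1.23 (SE 0.11). ALDH9A1, which acts in carnitine synthesis and also oxidises aminobutyraldehydes, went from 84.2, 88.4 and 89.3 CPM to 41.6, 41.8 and 42.1 CPM. Its 3 knockdown libraries were close to each other, with a coefficient of variation of 0.591%, and its log2 fold change was −1.06 (SE 0.08). The 2 genes together mark the strongest decreases among the 10.

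ALDH6A1, the methylmalonate semialdehyde dehydrogenase of valine and pyrimidine breakdown, was at 49.8, 46.5 and 45.2 CPM in the controls and 25.2, 23.3 and 23.6 CPM after knockdown. That is a 1.96-fold lower mean (log2 fold change −0.97, SE 0.09), again with no overlap. ALDH7A1, or antiquitin, which oxidises an intermediate of lysine breakdown and whose loss causes pyridoxine-dependent epilepsy, had the largest count of the 10 in the controls, with 3193, 2408 and 2510 reads (133, 116 and 131 CPM). The knockdown libraries held 84.1, 84.8 and 78.5 CPM, a 1.54-fold lower mean (log2 fold change −0.62, SE 0.08). The decrease was thus smaller in ALDH7A1 than in the other three lower members. GENCODE 29 lists 4 pseudogenes of ALDH7A1, and reads with several placements were counted apart from genes, so its counts are uncertain to that extent.

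The promoter sequences of these 4 lower genes are shown as a description, and a shared regulation of the 4 was not tested. Each is the RefSeq window from 250 bases before to 50 after the most upstream transcript start listed (build GRCh38.p14), written 5′ to 3′ on the gene's own strand. Capitals mark matches, on either strand, to CCAAT, to the GC box GGGCGG, to TATAAA and to the E box CACGTG.
ALDH4A1 (chr1:18902506-18902805, minus strand): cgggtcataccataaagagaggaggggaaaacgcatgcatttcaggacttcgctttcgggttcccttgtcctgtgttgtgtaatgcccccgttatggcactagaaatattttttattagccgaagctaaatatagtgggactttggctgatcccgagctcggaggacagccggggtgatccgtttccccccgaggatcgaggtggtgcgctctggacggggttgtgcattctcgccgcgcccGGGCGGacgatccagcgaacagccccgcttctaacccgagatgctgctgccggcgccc
ALDH6A1 (chr14:74084404-74084703, minus strand): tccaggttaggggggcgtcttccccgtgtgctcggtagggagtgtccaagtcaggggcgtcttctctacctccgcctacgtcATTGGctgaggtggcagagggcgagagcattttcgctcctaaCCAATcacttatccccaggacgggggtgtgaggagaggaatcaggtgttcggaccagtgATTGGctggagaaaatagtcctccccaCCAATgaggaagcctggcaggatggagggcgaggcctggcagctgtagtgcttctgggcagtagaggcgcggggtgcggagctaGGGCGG
ALDH7A1 (chr5:126595170-126595469, minus strand): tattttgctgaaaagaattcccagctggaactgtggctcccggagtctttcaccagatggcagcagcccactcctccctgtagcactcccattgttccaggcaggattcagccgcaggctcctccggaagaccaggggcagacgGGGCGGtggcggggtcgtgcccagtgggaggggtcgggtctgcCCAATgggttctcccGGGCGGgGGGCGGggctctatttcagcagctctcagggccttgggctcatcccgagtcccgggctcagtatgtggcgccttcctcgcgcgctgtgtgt
ALDH9A1 (chr1:165698513-165698812, minus strand): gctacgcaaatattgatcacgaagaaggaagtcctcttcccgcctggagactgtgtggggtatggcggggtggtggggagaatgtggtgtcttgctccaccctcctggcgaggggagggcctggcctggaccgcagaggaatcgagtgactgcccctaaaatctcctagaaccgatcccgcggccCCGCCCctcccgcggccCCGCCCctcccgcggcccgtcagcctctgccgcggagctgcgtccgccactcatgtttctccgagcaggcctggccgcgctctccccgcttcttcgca

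In these 4 windows the GC box letters occurred 1, 1, 3 and 2 times in the order printed, and CCAAT occurred 4 times in ALDH6A1, 1 time in ALDH7A1 and 0 times in ALDH4A1 and ALDH9A1. TATAAA and CACGTG had no match in them. Over all 35116 RefSeq windows of this length, 45% held the GC box, 34.6% CCAAT, 11.5% TATAAA and 7.26% CACGTG. The windows had 57.7, 61, 64.3 and 66.7% G and C, against a median of 58.7% over all windows. Windows were in the table for 8 of the 10 members. Of these, 6 held the GC box and 4 held CCAAT, and ALDH18A1 alone held CACGTG. A match of letters is a description of the sequence and does not show that a factor binds there. The reads themselves were placed on an older build, hg19, so these windows locate the genes and not the reads.

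ALDH1L2 moved the opposite way and by the largest step of the 10. It encodes the mitochondrial formyltetrahydrofolate dehydrogenase, which converts formyltetrahydrofolate to tetrahydrofolate and carbon dioxide while making NADPH. It had 462, 538 and 379 reads in the controls (19.2, 25.8 and 19.8 CPM) and 1732, 1938 and 1594 reads after knockdown (88.6, 102 and 81.6 CPM). The lowest knockdown library was far above the highest scrambled one. The mean was 4.2-fold higher, with a log2 fold change of 2.07 (SE 0.13). C12orf45, which overlaps ALDH1L2 on the opposite strand in GENCODE 29, had 244 to 285 reads in the controls and 157 to 185 reads after knockdown.

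Its cytosolic counterpart ALDH1L1, outside the 10, went down. ALDH1L1 was at 21.8, 20.2 and 21.8 CPM in the controls and 12.8, 12.7 and 12 CPM after knockdown (log2 fold change −0.77, SE 0.11, adjusted p = 6.4e-05 by edgeR's quasi-likelihood test). Against a change of 1.5-fold this gene was not called (adjusted p = 0.065). The reads of the mitochondrial gene were 1.02 ± 0.22 times those of the cytosolic gene in the controls and 7.25 ± 0.69 times after knockdown (SD, n = 3). These ratios compare reads, and the transcripts taken differ in length (7547 and 3137 bases). Per kilobase of these lengths, ALDH1L2 and ALDH1L1 stood at 2.87 and 6.78 CPM in the controls. After knockdown they stood at 12 and 3.99 CPM. By the longest transcripts the control values were 2.87 and 6.49. With all coding transcripts in the median they were 41 and 7.72, but that length for ALDH1L2 was a fragment of 527 bases. The order of the 2 genes in the controls thus depends on the transcript taken. ALDH1L1 has antisense transcripts in GENCODE 29, and the strand setting of the counting is not given in the sources used here.

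ALDH3A2, the fatty aldehyde dehydrogenase of the endoplasmic reticulum, whose loss causes Sjögren-Larsson syndrome, was slightly higher. It was at 63.1, 57.8 and 66.9 CPM in the controls and 74.8, 74.3 and 72.3 CPM after knockdown, a log2 fold change of 0.24 (SE 0.09). The groups did not overlap, but the gap between them was small. For the log2 fold change of ALDH3A2 the adjusted p was 0.029. Leaving out scrambled replicate 1, scrambled replicate 2 or knockdown replicate 1 gave 0.07, 0.14 and 0.063, and using no scaling factor gave 0.087, each of which leaves ALDH1L2 as the single member called higher.

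The mitochondrial acetaldehyde enzymes showed no detectable difference. ALDH2, the main enzyme that clears acetaldehyde after alcohol intake, was at 78.9, 84.8 and 85.0 CPM in the controls and 84.9, 74.6 and 81.3 CPM after knockdown (log2 fold change −0.05, SE 0.08). ALDH1B1, a mitochondrial relative that also takes acetaldehyde and retinaldehyde, was at 86.7, 91.1 and 114 CPM and at 79.3, 102 and 87.7 CPM (log2 fold change −0.12, SE 0.12). Both sets of libraries overlapped. The ALDH1B1 value was 0.00 without scrambled replicate 3, its highest library, and the ALDH2 value ranged from −0.11 to 0.01 over all settings.

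ALDH18A1, which makes pyrroline-5-carboxylate from glutamate at the start of proline synthesis, lay between these groups. The scrambled libraries were at 89.4, 93.6 and 91.0 CPM and the knockdown libraries at 72.5, 90.7 and 70.9 CPM. Knockdown replicate 2 lay inside the scrambled range, and the other two libraries lay below it (log2 fold change −0.23, SE 0.10). Without knockdown replicate 2 the value was −0.35, with an adjusted p of 0.0034 in place of 0.066. ALDH18A1 and ALDH4A1 act in opposite directions between glutamate and pyrroline-5-carboxylate. The ratio of their reads was 2.19, 2.22 and 2.09 in the controls and 4.34, 5.46 and 3.47 after knockdown.

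ALDH1A3, which oxidises retinaldehyde to retinoic acid and is often tied to aldehyde dehydrogenase activity in tumours, was close to absent. It had 4, 3 and 5 reads in the controls and 3, 6 and 7 reads after knockdown, under 0.4 CPM in each, and did not pass the filter on low counts. No fold change is given for it. The other two genes of the retinaldehyde subfamily were also scarce: ALDH1A1 had 13 to 33 reads in the controls and 7 to 25 after knockdown, and ALDH1A2 had at most 4 reads in any library.

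Of the 9 family genes outside the 10, 7 were tested, 3 were called lower and 1 higher, against the 30.8% of all genes in each direction. ALDH3B1, which oxidises lipid-derived aldehydes, fell from 75 ± 3.97 to 37.4 ± 6.86 CPM (SD, n = 3; adjusted p = 2.3e-05, log2 fold change −1). ALDH16A1, an atypical member of the family, fell from 37.6 ± 4.31 to 17.9 ± 3.73 CPM (adjusted p = 7.8e-05, log2 fold change −1.07). PIH1D1, which overlaps ALDH16A1 on the opposite strand, had 1040 to 1446 reads in the controls and 478 to 568 reads after knockdown. ALDH8A1, an enzyme of tryptophan breakdown, rose from 12 to 16 reads per library to 44 to 54 reads (adjusted p = 6.4e-05, log2 fold change 1.86, SE 0.26), and it stayed rare at 2.46 ± 0.26 CPM. ALDH5A1, the succinic semialdehyde dehydrogenase of the GABA pathway, was at 24.0 ± 2.10 and 20.7 ± 1.63 CPM with no call (adjusted p = 0.12). ALDH1A1 and ALDH3A1 had no call (adjusted p = 0.58 and 0.30), and ALDH3B2 had at most 1 read in any library.

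**Figure D2:**
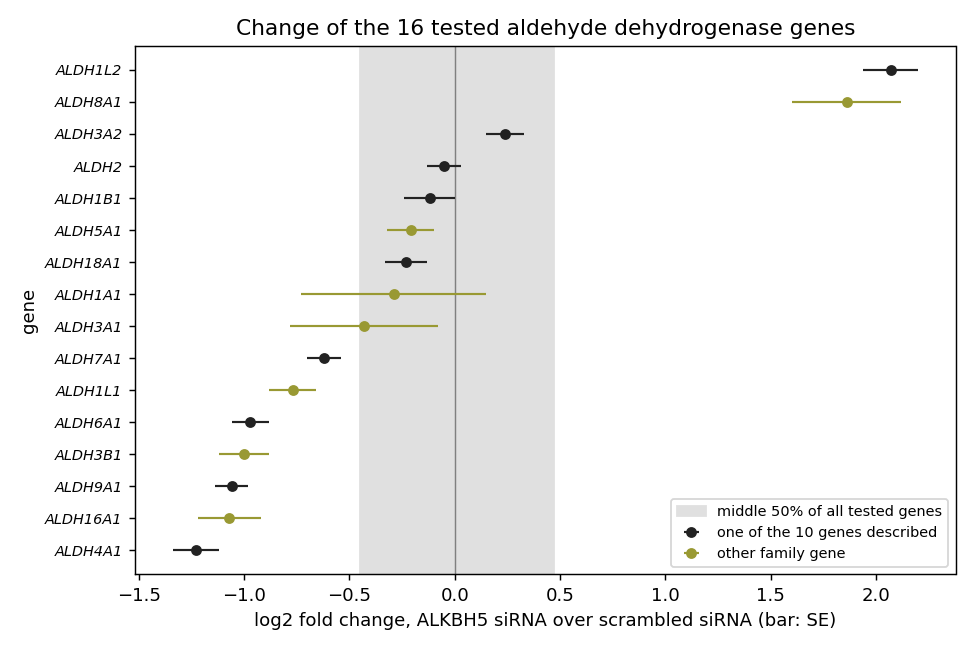
Log2 fold change with its SE for the 16 tested genes of the family, with the range between the quartiles of all tested genes shaded (−0.45 to 0.47). ALDH4A1, at −1.23, and ALDH1L2, at 2.07, stand at the ends, and 13 of the 16 values are below 0. Over all 14504 tested genes, 7172 values are below 0. The family was picked because it leaned lower, so nothing is read from its count.

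Added over the 19 genes of the family, reads made up 820 ± 25.5 CPM in the controls and 672 ± 17.3 CPM after knockdown (SD, n = 3). ALDH1L2 supplied 2.64% ± 0.48 of that sum in the controls and 13.5% ± 1.18 after knockdown. Scaled by transcript length, its share was 0.857% ± 0.155 and 4.82% ± 0.537. Without ALDH1L2 the sums were 798 ± 26.7 and 581 ± 7.12 CPM. The increase of this gene thus offset part of the decrease of the others in the summed reads.

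Levels can be compared between genes only per transcript length. Levels below are in CPM per kilobase of the median coding transcript of GENCODE's basic set. Where the number of transcripts was even, the shorter of the middle pair was taken. For ALDH2, with 2 transcripts of 1572 and 9569 bases, this was the shorter one. By these lengths ALDH7A1 (54.3 ± 4.08) and ALDH2 (52.7 ± 2.20) led the family in the controls (SD, n = 3), and their libraries overlapped. ALDH3B1 (36.1 ± 1.91), ALDH9A1 (32.4 ± 1.02), ALDH1B1 (31.7 ± 4.79), ALDH18A1 (27.4 ± 0.64), ALDH6A1 (25.2 ± 1.27), ALDH4A1 (19.8 ± 0.66) and ALDH3A2 (17.5 ± 1.28) followed. ALDH9A1 and ALDH1B1 overlapped each other, as did ALDH3A2 and ALDH16A1 (15.2 ± 1.75), while the other neighbours among these did not, by the narrowest margin for ALDH18A1 (lowest library 26.8) and ALDH6A1 (highest library 26.7). ALDH1L2, with a transcript of 7547 bases, was at only 2.87 ± 0.49 in the controls, rank 13 of 19, and at 12 ± 1.37 after knockdown, rank 9. By this length ALDH2 (51.1 ± 3.33) and ALDH7A1 (35.4 ± 1.49) led in the knockdown. The order depends on the transcript taken. In the controls, by the longest transcript, ALDH2 moved from rank 2 to rank 9 and ALDH9A1 from rank 4 to rank 1. ALDH1L2 had rank 13 in the controls and rank 7 in the knockdown by the longest transcript, where its knockdown level of 12 was above that of ALDH2 (8.39). With all coding transcripts in the median it had rank 6 and rank 1, because that median was a fragment of 527 bases for this gene. Its place among the family's levels is therefore not settled by these counts.

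**Figure D3:**
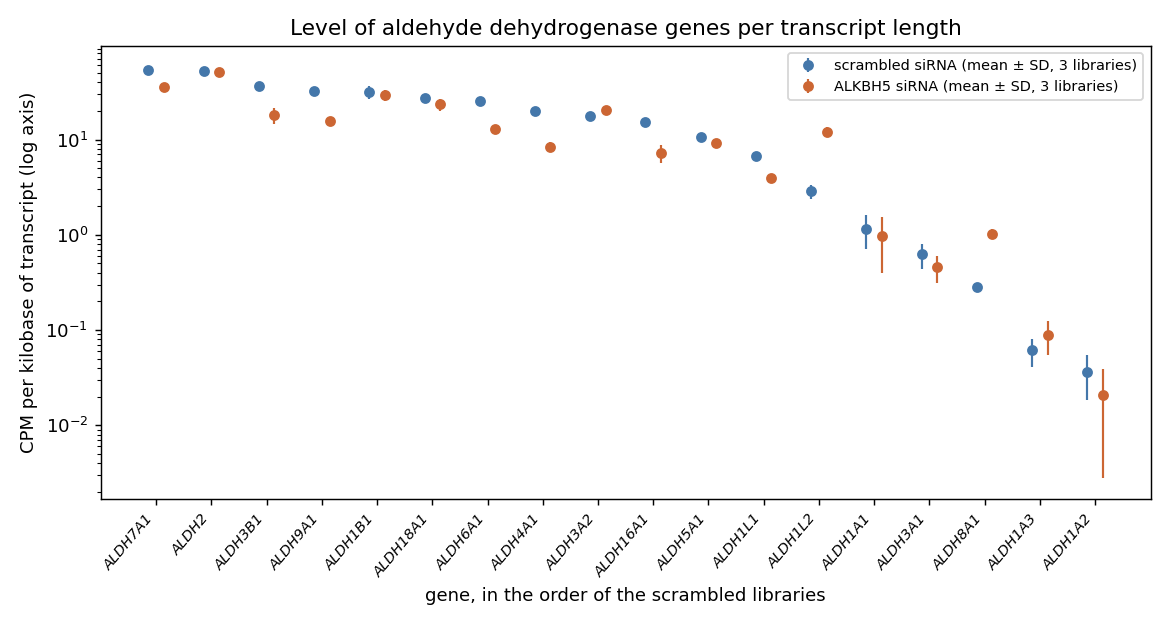
Mean CPM per kilobase of transcript with its SD over 3 libraries, on a log axis, for 18 family genes in the order of the scrambled libraries; ALDH3B2, with 0 reads in the controls, is left out. ALDH1L2 rises from 2.87 to 12, and ALDH1A3 and ALDH1A2 lie below 0.1 in both groups.

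Because ALKBH5 acts on m6A, copies of GGACT, a form of the m6A consensus, were counted in the same transcripts. The 10 members held between 0 (ALDH2) and 1.40 (ALDH3A2) copies per kilobase, with a median of 0.648, against a median of 0.978 and quartiles of 0.535 and 1.48 over 12347 tested genes with a transcript. For ALDH2 the transcript taken has 1572 bases and the longest 9569, so its 0 covers the shorter one only. ALDH1L2 had 2 copies in its 7547 bases, or 0.265 per kilobase. These densities depend on the transcript taken. Methylation was not measured here, and a match of letters does not show a methylated site.

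Genes of 7 neighbouring pathways were read from the same fit, 131 genes in all. Of the 106 tested, 42 were lower (39.6%) and 26 higher (24.5%), with a median log2 fold change of −0.15. Over all tested genes 30.8% were called in each direction, and the counts of each list below stand beside that share. These lists describe the setting of the members and carry no test of their own.

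Genes beside ALDH18A1 and ALDH4A1 changed in both directions. In the proline and glutamate list 7 of 12 tested genes were lower (58.3%) and 4 higher (33.3%), with a median log2 fold change of −0.29. Of the reductases that finish proline synthesis, PYCRL fell from 45.9 ± 1.37 to 15 ± 1.01 CPM (adjusted p = 8.4e-08) and PYCR1 from 332 ± 8.16 to 279 ± 7.88 CPM (adjusted p = 0.0075). ARG2, a mitochondrial arginase, fell by 1.12 on the log2 scale. OAT, which makes pyrroline-5-carboxylate from ornithine, rose from 43.4 ± 1.28 to 128 ± 4.37 CPM (adjusted p = 2.0e-08, log2 fold change 1.56). GLUD1, glutamate dehydrogenase, rose from 33.3 ± 1.83 to 117 ± 11.4 CPM (adjusted p = 2.7e-08, log2 fold change 1.82). Its near-identical copy GLUD2 was also called higher, from 19.8 ± 1.51 to 53.3 ± 2.95 CPM (log2 fold change 1.43). Reads that fit both genes cannot be assigned, so the split between them is uncertain. Both are among the 4 higher genes of the list. PRODH, which starts proline breakdown ahead of ALDH4A1, stood at 0.46 ± 0.15 and 0.172 ± 0.08 CPM and was not tested.

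Around ALDH6A1, 7 of 24 genes of branched-chain amino acid breakdown were lower (29.2%) and 6 higher (25%), with a median of −0.09. HIBCH, which acts ahead of it in valine breakdown, fell from 26.7 ± 1.54 to 7.23 ± 0.13 CPM (adjusted p = 6.9e-08, log2 fold change −1.88), and HIBADH, the step between them, fell from 123 ± 8.32 to 95 ± 2.20 CPM (adjusted p = 0.0016). PCCB, a subunit of propionyl-CoA carboxylase that takes up the product, fell by 1.27 on the log2 scale. DBT and DLD, subunits of the branched-chain ketoacid dehydrogenase complex, rose by 1.46 and 0.91. The valine route was not lower throughout: ACAD8, the isobutyryl-CoA dehydrogenase upstream of HIBCH, picked out after its values were seen, rose from 14.8 ± 0.83 to 25.4 ± 2.02 CPM (adjusted p = 6.4e-05).

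Beside ALDH7A1 and ALDH9A1, 6 of 13 tested genes of lysine, choline, carnitine and polyamine metabolism were lower (46.2%) and 3 higher (23.1%), with a median of −0.46. AASS, which opens lysine breakdown, fell from 17.9 ± 0.29 to 6.54 ± 0.68 CPM (adjusted p = 1.5e-06), and GCDH, a later step of the same route, from 19.0 ± 1.45 to 9.49 ± 0.52 CPM (adjusted p = 2.0e-05). TMLHE, the first enzyme of carnitine synthesis, fell from 16.1 ± 0.52 to 10.7 ± 2.01 CPM (adjusted p = 0.0038). SLC22A5, the transporter that imports carnitine, rose from 7.24 ± 0.29 to 21.2 ± 1.21 CPM (adjusted p = 4.7e-07, log2 fold change 1.55), and the polyamine acetyltransferase SAT1 rose by 0.72 on that scale.

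Among folate enzymes, the setting of ALDH1L2, 8 of 14 were lower (57.1%) and 3 higher (21.4%), with a median of −0.26. SHMT1, the cytosolic serine hydroxymethyltransferase, fell from 38.6 ± 2.08 to 10.5 ± 0.69 CPM (adjusted p = 4.2e-08), and its mitochondrial form SHMT2 from 284 ± 27.5 to 221 ± 20 CPM (adjusted p = 0.0047). MTFMT, which uses formyltetrahydrofolate to formylate the mitochondrial initiator tRNA, fell by 1.55 on the log2 scale. MTHFD2, a mitochondrial enzyme that makes formyltetrahydrofolate, was at 534 ± 59.9 and 671 ± 112 CPM (adjusted p = 0.036, log2 fold change 0.33). The call of MTHFD2 ended when scrambled replicate 1, scrambled replicate 3 or knockdown replicate 2 was left out (adjusted p = 0.12, 0.059 and 0.13). MTHFD2L and GGH rose by 0.87 and 0.42 on the log2 scale. The count of lower folate genes was 5 without scrambled replicate 3 and 5 without knockdown replicate 1.

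Beside ALDH3A2, 7 of 13 tested genes of sphingolipid, fatty alcohol and ether lipid metabolism were higher (53.8%) and 3 lower (23.1%), with a median of 0.26. SGPL1, the lyase whose long-chain aldehyde product ALDH3A2 oxidises, was at 184 ± 15.2 and 199 ± 16 CPM with no call (adjusted p = 0.27). SGPP1, a sphingosine phosphate phosphatase, rose from 30.7 ± 3.25 to 59.7 ± 7.35 CPM (adjusted p = 1.9e-05), and the peroxisomal oxidase ACOX3 by 0.67 on the log2 scale. HACL1 and PHYH, which act in the peroxisomal breakdown of phytanic acid, fell from 28.5 ± 0.69 to 12.7 ± 0.07 CPM and from 30.4 ± 1.61 to 15.6 ± 1.29 CPM (adjusted p = 1.1e-06 and 9.2e-06).

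In the retinoid list 6 of 16 tested genes were lower (37.5%) and 2 higher (12.5%), with a median of −0.13. The number higher was 5 without knockdown replicate 3, 5 with the replicate number as a block and 1 with glmTreat against 1.5-fold. RARG, a retinoic acid receptor, fell from 102 ± 7.01 to 17.7 ± 4.18 CPM (adjusted p = 1.3e-07, log2 fold change −2.52, SE 0.15). CYP26B1, which clears retinoic acid, fell by 1.07, RXRB, the partner receptor, by 0.98 and DHRS3, which reduces retinaldehyde, by 1.23 on the log2 scale. RDH10, which makes retinaldehyde, rose from 18.0 ± 3.25 to 36.9 ± 2.49 CPM (adjusted p = 2.5e-05), and RDH13 by 0.89 on that scale.

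Of the 14 tested genes in the list of alcohol, carbonyl and redox enzymes, 5 were lower (35.7%) and 1 higher (7.14%), with a median of −0.19. The number higher was 2 without scrambled replicate 3 and 2 without knockdown replicate 1, and the number lower was 8 with no scaling factor. That setting also raised the number of all tested genes called lower from 4466 to 4992. AKR1C3 fell from 12.6 ± 2.08 to 1.72 ± 0.33 CPM (adjusted p = 2.3e-07, log2 fold change −2.87), and reads of this gene are uncertain because its close paralogs share sequence. AKR1A1, an aldehyde reductase, fell from 141 ± 10.1 to 61.4 ± 3.64 CPM (adjusted p = 2.6e-07). ADH5, the formaldehyde-clearing alcohol dehydrogenase, was at 112 ± 7.49 and 101 ± 3.80 CPM with no call (adjusted p = 0.14, and 0.033 with no scaling factor). GLO1, which clears methylglyoxal, rose from 222 ± 4.70 to 266 ± 15.5 CPM (adjusted p = 0.0075).

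**Figure D4:**
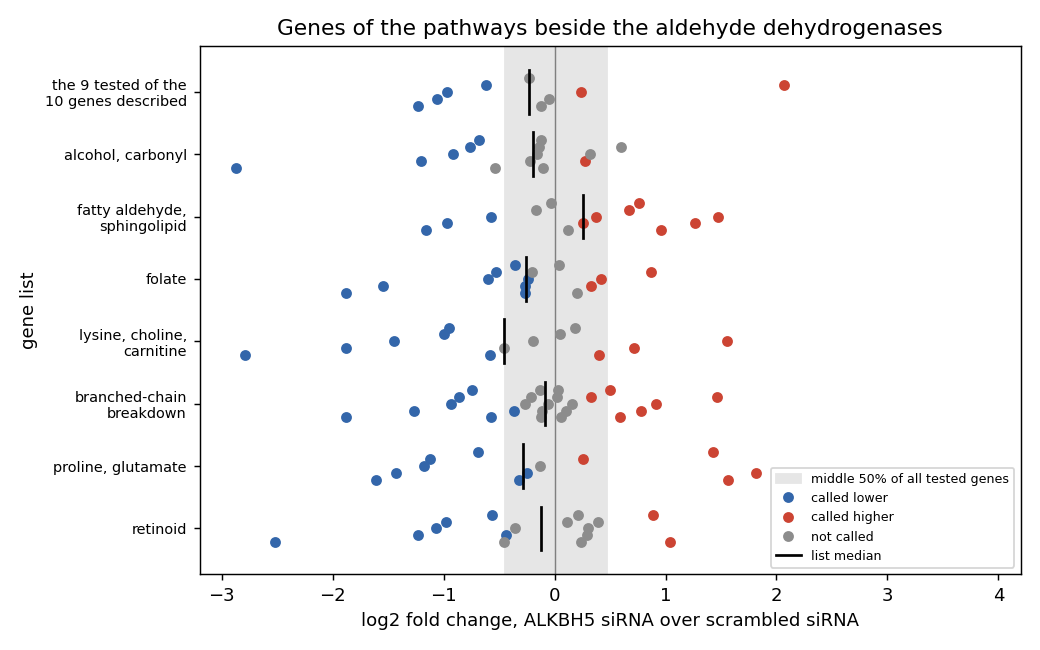
Log2 fold change of each tested gene in 7 pathway lists and of the 9 tested members, coloured by call, with a bar at each list's median and the range between the quartiles of all tested genes shaded. The fatty aldehyde and sphingolipid list has its median above 0 (0.26), and the other lists and the members have theirs between −0.46 and −0.09.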

How the data were processed

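Read counts per gene symbol were taken as the authors deposited them, raw and not normalised, per the file headers. CASAVA 1.8.2, TopHat2, SAMtools, HTSeq and hg19 are named in the submitters' processing notes. No annotation, setting or strand of counting is given in the sources used here. HTSeq's summary lines stayed out of library sizes and tests, and 0 columns lacked a sample.

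Counts were fitted with edgeR 4.0.16 in R 4.3.3 (filterByExpr, TMM, robust glmQLFit and glmQLFTest, 2-sided), with p-values adjusted by Benjamini-Hochberg over 14504 tested genes and called under 0.05. CPM values are TMM-scaled. The fitting code was tested on simulated data with far fewer changed genes than were called here, which does not test the calls at this extent of change. Transcript lengths are from GENCODE 29. The basic set was chosen after seeing that the median of all coding transcripts was a fragment for ALDH1B1 and ALDH1L2. Promoter windows are from RefSeq.

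The members and lists were chosen with earlier results of these data known. The named genes are all members, the tested family genes, fixed neighbours of members' reactions, and up to 2 called genes per direction with the smallest adjusted p in each list. Some named items are not reported here. The alternatives were RLE or no scaling, no filter or 1 CPM in 3 libraries, DESeq2 1.42.0, limma-voom (limma 3.58.1), no robust moderation, the replicate number as a block, glmTreat against 1.5-fold, and leaving out each library.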

Additional observations from a re-analysis of the deposited data

How the results depend on the processing

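All 9 tested members and the other 7 tested family genes kept their direction under every scaling, filter, tool and left-out library, apart from ALDH2 (up to 0.01), ALDH1B1 (up to 0.00) and ALDH1A1 (up to 0.07), none of which was called. The number of members called lower was 3 to 5, with ALDH18A1 as the added gene and ALDH7A1 as the one lost under glmTreat, and the number called higher was 1 with no scaling factor, 1 with glmTreat and 1 to 2 when single libraries were left out; ALDH3A2 made the difference. With no scaling factor 4992 of all 14504 tested genes were called lower and 4019 higher, against 4466 and 4471 in the main fit. Their median log2 fold change was then −0.06, so that setting moved all genes. With single libraries left out, 3979 to 4325 of all genes were lower and 3899 to 4391 higher. Against a change of 1.5-fold, glmTreat called 1710 of all genes lower and 1891 higher. It called 22 of the pathway genes lower and 10 higher. These counts are smaller since it asks for a larger change. With the replicate block 4895 genes were lower and 4865 higher, and 5 and 2 of the members. Deviations of same-numbered libraries from their group mean correlated across genes at r = 0.392, 0.0701 and 0.416. For each knockdown library this was the highest of its values. The other pairs ran from −0.434 to 0.106, and scrambled replicate 2 correlated slightly better with knockdown replicate 1 (0.106) than with knockdown replicate 2. The labels state no pairing, so the main fit has no block, and whether the numbers pair the libraries is not settled. With the block ALDH18A1 was called lower (adjusted p = 0.018 by edgeR's quasi-likelihood test). Summed over the family, the levels of the aldehyde dehydrogenase genes in the scrambled libraries came to 335 CPM per kilobase, 217 by the longest transcript and 581 with all coding transcripts in the median (added after seeing the data), so levels between genes are only as good as the lengths. For genes of a few reads, such as ALDH1A3, no difference was detectable at this depth.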
